A study of Mus musculus with 18 samples.

Results

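The genes described here are 45 mouse genes of the cell cycle and DNA replication, named as a list of symbols, each looked up on the array through its platform gene symbol. They span origin licensing, the replication fork, nucleotide supply, the G1 and S cyclins, the cyclins and kinase of S phase to mitosis, and the spindle and its checkpoint. On the array 42 of the 45 had a probe set (a group of probes for 1 transcript) annotated to that gene alone, out of 8251 genes and 12422 probe sets in all. The other 3 have no values here: Ccnb1 and Bub1b had no such probe set, and Tyms shared its probe sets with a pseudogene. Of the 42 genes, 36 lay among the 7453 brightest probe sets that were tested, and Mcm6, Rfc4, Prim1, Kif11, Aurka and Bub1 lay below that limit. Each gene is represented by its probe set of highest mean, and values are probe set signals on the linear scale the authors deposited.

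The samples are hearts of mice with a cardiac-specific TNF-alpha transgene (TNFTG), a model of heart failure, and of FVB mice, profiled during hypertrophy and in dilated failure. The FVB arrays were all from mice of 3 weeks, 2 distinct arrays labelled female and 3 labelled male. The TNFTG arrays were 3 females and 3 males of 3 weeks, 3 males of 13 weeks and 3 females of 40 weeks. FVB hearts of 13 or 40 weeks were not analysed here, and since the older TNFTG hearts are male at one age and female at the other, age and sex cannot be told apart between them. The labels name neither the promoter of the transgene nor the animals behind each array. The p-values therefore describe array-to-array spread only, and that spread may be technical.

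Before a cell divides it loads the Mcm helicase onto replication origins in G1, opens them in S phase with cyclin-dependent kinases, copies its DNA with the polymerases, clamp and ligase of the fork, and separates the copies on the spindle in M phase. The transcripts of these steps are made in waves. E2F factors drive many S phase genes through E2F sites. The DREAM and MuvB complexes act on mitotic genes through CHR elements, in promoters that often also hold CCAAT boxes. In the mouse heart, cardiomyocytes largely stop dividing soon after birth, while fibroblasts, endothelial cells and blood-borne cells keep the ability to divide.

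The promoters of 6 genes that were higher in TNFTG hearts at 3 weeks are shown, because they carry the motifs by which this gene group is usually grouped. They are the genes of largest log2 difference among those called higher that held an E2F-type site or a CHR-type element in the window searched. Each line gives the 250 bases before the annotated start in RefSeq, build GRCm38.p6, 5′ to 3′ on the strand of the gene. Capitals mark every E2F-type site (TTTCCCGC, TTTCGCGC, TTTGCCGC or TTTGGCGC), CHR-type element (TTTGAA or TTCGAA) and CCAAT box (CCAAT), read on either strand.
Mki67: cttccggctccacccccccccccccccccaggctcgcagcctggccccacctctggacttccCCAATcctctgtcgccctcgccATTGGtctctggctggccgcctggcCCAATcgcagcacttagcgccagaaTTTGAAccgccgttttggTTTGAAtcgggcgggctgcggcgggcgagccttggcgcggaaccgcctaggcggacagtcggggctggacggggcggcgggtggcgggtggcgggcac
Top2a: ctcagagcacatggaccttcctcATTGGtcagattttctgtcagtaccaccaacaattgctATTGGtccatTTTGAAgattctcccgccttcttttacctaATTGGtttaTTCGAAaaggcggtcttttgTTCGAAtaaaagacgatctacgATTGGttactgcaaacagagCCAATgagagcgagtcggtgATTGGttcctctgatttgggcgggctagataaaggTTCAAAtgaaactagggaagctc
Cks1b: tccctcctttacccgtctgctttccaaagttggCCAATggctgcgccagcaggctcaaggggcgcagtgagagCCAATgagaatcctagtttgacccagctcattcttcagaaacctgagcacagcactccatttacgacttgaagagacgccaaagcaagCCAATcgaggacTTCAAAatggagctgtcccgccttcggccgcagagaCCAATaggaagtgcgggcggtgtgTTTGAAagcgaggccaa
Mcm5: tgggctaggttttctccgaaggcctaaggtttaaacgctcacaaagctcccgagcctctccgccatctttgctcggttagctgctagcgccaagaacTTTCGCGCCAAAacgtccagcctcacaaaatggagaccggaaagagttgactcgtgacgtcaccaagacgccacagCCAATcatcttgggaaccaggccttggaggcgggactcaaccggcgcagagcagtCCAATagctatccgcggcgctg
Cdk1: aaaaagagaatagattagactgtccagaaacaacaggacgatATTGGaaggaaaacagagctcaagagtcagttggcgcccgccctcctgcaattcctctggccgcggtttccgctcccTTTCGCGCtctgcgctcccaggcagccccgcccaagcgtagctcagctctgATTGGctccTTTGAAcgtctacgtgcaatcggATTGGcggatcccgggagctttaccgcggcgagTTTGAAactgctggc
Mcm2: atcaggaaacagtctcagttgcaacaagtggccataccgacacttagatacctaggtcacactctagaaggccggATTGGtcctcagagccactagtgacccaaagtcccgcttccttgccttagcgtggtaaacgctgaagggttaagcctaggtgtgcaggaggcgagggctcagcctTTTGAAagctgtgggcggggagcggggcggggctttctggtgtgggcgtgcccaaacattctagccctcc

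Mki67 lies at chr7:135716380-135716629 (minus strand), Top2a at chr11:99024190-99024439 (minus), Cks1b at chr3:89418292-89418541 (minus), Mcm5 at chr8:75109259-75109508 (plus), Cdk1 at chr10:69352913-69353162 (minus) and Mcm2 at chr6:88898781-88899030 (minus). The Mcm5 window held 2 E2F-type sites on opposite strands that overlap in 1 run of capitals, 153 and 149 bases before the start, and no CHR-type element. The Mki67 window held 2 CHR-type elements, 116 and 98 bases before the start, and 3 CCAAT boxes. The Top2a window held 4 CHR-type elements and 6 CCAAT boxes, and that of Cdk1 held 1 E2F-type site, 2 CHR-type elements and 3 CCAAT boxes. Promoters of 35 of the 42 genes on the array were found in the table used, 41 windows in all of 300 bases (250 before to 50 after the start). An E2F-type site stood in 10 of the 41 windows (24.4%), against 2.26% of all 32851 promoters. A CHR-type element stood in 14 of the 41 (34.1%), against 19.2% of all promoters, and a CCAAT box in 26 (63.4%), against 37.4%. Among the 25 windows of genes called higher at 3 weeks, 7 held an E2F-type site (28.0%), 9 a CHR-type element (36.0%) and 16 a CCAAT box (64.0%). Rrm1 and Cks2, both called higher, held CCAAT boxes but neither of the other motifs, while Mcm6, too dim on nearly all arrays to be tested, held 3 E2F-type sites, 2 of them overlapping. These are matches of letters, with no measurement of binding.

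The transgene was checked first. The Tnf signal was 12.5 to 125 on the FVB arrays and 5476 to 12082 on the TNFTG arrays. The columns of FVB female replicates 1 and 2 held identical values and were counted as 1 sample, and that array stood apart from the rest: 7.33% of its probe sets lay at the floor of 44.7, below which signals were not ordered, against 23.7% to 28.3% on every TNFTG array. Its median Spearman correlation with the other arrays was 0.70. This was 0.82 to 0.87 on the remaining FVB arrays and 0.91 to 0.95 on TNFTG arrays. Because most arrays are TNFTG, array quality and genotype cannot be told apart in this measure. The limma fit shared 1 estimate of spread over all groups. The arrays labelled FVB male 1 and male 2 had Xist signals of 1381 and 2706, in the range of the females, while FVB male 3 had 5.9. The Y-linked Eif2s3y read 299 on FVB male 1 and 67.4 on FVB male 2, against 348 to 545 on the other male arrays, 2.9 to 30.8 on the TNFTG female arrays and 115 and 40.9 on the FVB female arrays. For FVB male 1 the 2 genes thus point to different sexes, and the sex-specific results rest on labels in doubt. Results without these 3 arrays (the outlying female, male 1 and male 2) are given below where a call changed. None of the 10 cardiomyocyte markers was at the floor on every array of any group. The ratio of the 3′ to the 5′ Actb control, a sign of RNA integrity, was 1.29 to 1.97 on FVB arrays and 1.12 to 1.44 on TNFTG arrays of 3 weeks, and its part in the results was not tested.

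At 3 weeks most of the tested cell cycle genes were higher in TNFTG hearts. By limma with Benjamini-Hochberg adjustment over all 7453 probe sets, 26 of 36 genes rose and 0 fell, where 24.7% of all tested probe sets were called higher and 21.9% lower. Beside that 0, no tested gene with a negative difference had an unadjusted p under 0.05. The median log2 difference was 0.85 over the 36 genes and -0.01 over all tested probe sets. On all 6 TNFTG arrays of 3 weeks the signals of 16 genes lay above all 5 FVB arrays, which held for 14.5% of all tested probe sets. Without the outlying FVB female array 28 of 36 were called higher, and without all 3 doubted FVB arrays 27 were. With the whole table left unfiltered, 26 of the 42 genes on the array were called higher and 0 lower, where 15.2% of 12422 probe sets were called higher. In whole tissue, a change in the number of cells of a type and a change of RNA per cell cannot be told apart.

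**Figure D1:**
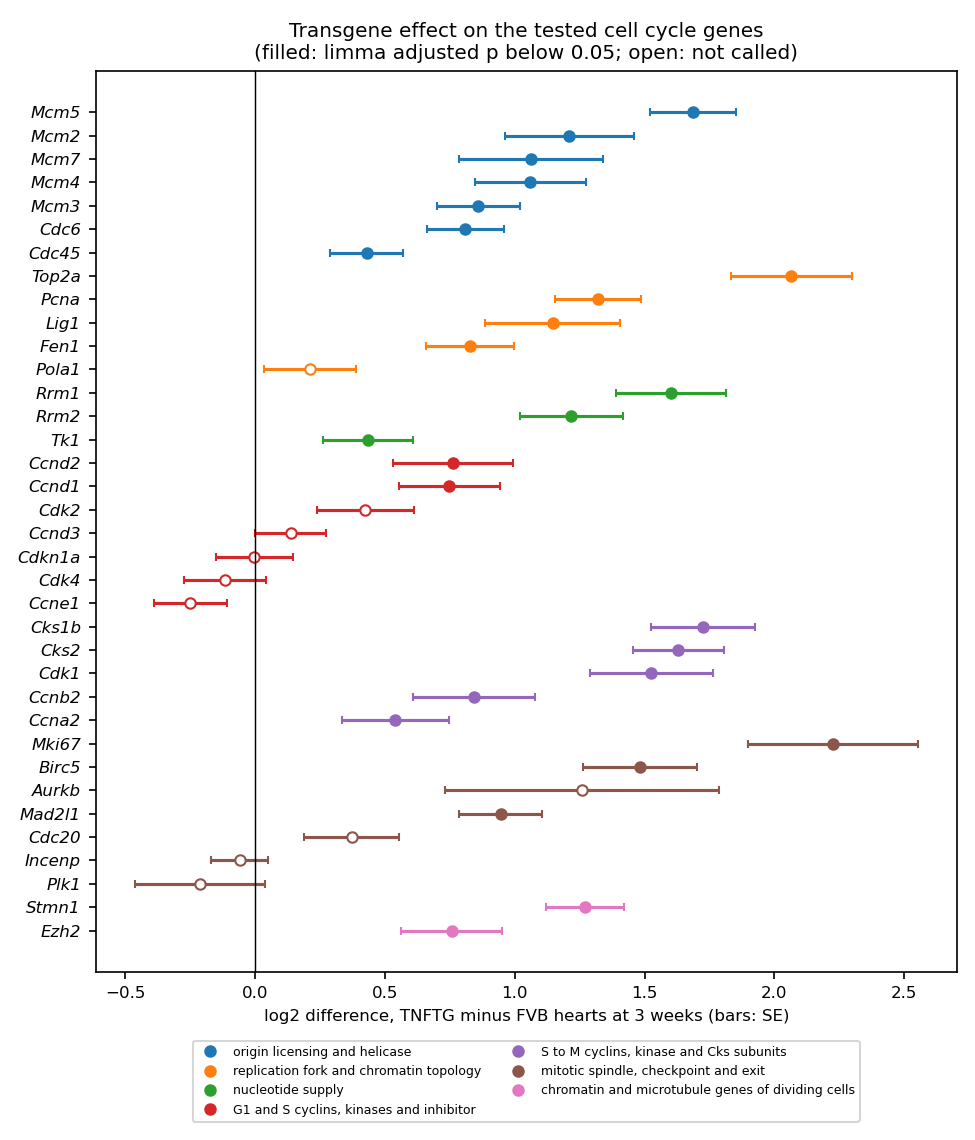
Log2 difference between TNFTG and FVB hearts at 3 weeks for the 36 tested genes, grouped and coloured by role, with the SE from limma as bars; filled points were called at an adjusted p below 0.05. The 26 filled points all lie to the right of 0, and the G1 and S group sits nearest to 0 with 2 of 7 genes called.

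The origin licensing and helicase genes rose as a whole group, with 7 of 7 tested genes called higher and a median difference of 1.06 on the log2 scale. Mcm5, a subunit of the ring-shaped helicase that unwinds DNA at origins, had signals of 239 and 199 on the FVB female arrays and of 225, 356 and 243 on the FVB male arrays. On the TNFTG arrays of 3 weeks it ranged from 665 over a median of 775 to 1004, at 13 weeks it was 584, 972 and 764, and at 40 weeks it lay between 713 and 847. Every TNFTG array of every age was above every FVB array. The log2 difference at 3 weeks was 1.69 ± 0.16 (SE, adjusted p = 6.83e-07), a fold of 3.22. A second, dimmer Mcm5 probe set lay outside the tested ones, and without the filter it was lower in TNFTG hearts (-1.03, adjusted p = 0.0431).

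Mcm2, another helicase subunit, read 169 and 135 on the FVB female arrays and 162, 122 and 39 on the FVB male arrays. The last of these is below the floor and entered the fit at the floor, and the fitted log2 difference was 1.21 ± 0.25 (adjusted p = 0.000936). In TNFTG hearts of 3 weeks Mcm2 ranged from 233.5 over 271 to 339, with no overlap with FVB. The other tested helicase subunits were also called: Mcm7 by 1.06, Mcm4 by 1.06 and Mcm3 by 0.86 on the log2 scale. For Mcm3 and Mcm4 the outlying FVB female array was the highest of the FVB arrays and reached into the TNFTG range, and without it their differences were 1.09 and 1.39. A second Mcm3 probe set showed a difference of 1.51 (adjusted p = 4.75e-06). Cdc6, which loads the helicase, rose by 0.81 and Cdc45, which joins it in the active fork, by 0.43. The call for Cdc45 was lost without FVB female replicate 3, TNFTG female replicate 1 or TNFTG male replicate 3 (adjusted p up to 0.0651), and without the 3 doubted FVB arrays (adjusted p = 0.0811). Mcm6 was at or below the floor on 4 of 5 FVB arrays and on all 6 TNFTG arrays of 3 weeks, with only the outlying FVB array at 166.5, so no change could be measured for it.

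At the replication fork 4 of 5 tested genes rose. Pcna encodes the sliding clamp that holds the polymerases on DNA. Its signal was 606 and 718 on the FVB female arrays and 659, 970.5 and 679 on the FVB male arrays, against 1588 to 2346 with a median of 1629 in TNFTG hearts of 3 weeks. The groups did not overlap, and the log2 difference was 1.32 ± 0.17 (adjusted p = 1.01e-05). At 13 weeks Pcna read 1077, 1591 and 1185, and at 40 weeks 1472, 1369 and 1037, again above every FVB array.

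Top2a is the topoisomerase that untangles replicated chromosomes. Its FVB signals were 45.9 and 13.9 in females and 104, 72.8 and 10 in males, 2 of them below the floor. TNFTG hearts of 3 weeks ranged from 149 over 233.5 to 399, and those of later ages read 223.5, 258 and 213 at 13 weeks and 256, 161 and 108 at 40 weeks. All 12 TNFTG arrays lay above the FVB arrays, the lowest of 40 weeks only just. The log2 difference at 3 weeks was 2.07 ± 0.23 (adjusted p = 3.17e-06), with the 2 lowest FVB arrays entered at the floor, and 1.04 to 2.40 under the other settings tried. Lig1, the ligase that joins Okazaki fragments, and Fen1, the nuclease that trims them, rose by 1.15 and 0.83, and neither overlapped between the groups. Pola1, the catalytic subunit of the priming polymerase, was not called (0.21 ± 0.18, adjusted p = 0.343). Its highest FVB signal, 273, came from the outlying array, the other 4 lay at 127 to 153 and all 6 TNFTG arrays at 173 to 211, and without the outlying array the difference was 0.48 (adjusted p = 0.0178; 0.52 and 0.0373 without all 3 doubted arrays). The dim genes Prim1, the primase, and Rfc4, a clamp loader subunit, showed 0.39 and 0.37 without the filter and were not called.

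All 3 tested genes of nucleotide supply rose. Rrm1 and Rrm2 are the large and small subunits of ribonucleotide reductase, which makes the deoxynucleotides for DNA. Rrm1 read 79.9 and 46.7 on the FVB female arrays and 159, 190 and 185 on the FVB male arrays, and 269 to 463.5 with a median of 282 in TNFTG hearts of 3 weeks. The groups did not overlap, with FVB females the lowest, and the log2 difference was 1.60 ± 0.21 (adjusted p = 1.72e-05). Rrm2 read 225 on the outlying FVB female array and 98.5 to 128 on the other 4, against 215 to 426 in TNFTG hearts, which leaves 1 FVB array inside the TNFTG range. Its log2 difference was 1.22 ± 0.20 (adjusted p = 0.000138). Tk1, the thymidine salvage kinase, rose by only 0.43 ± 0.17 and stood at the edge of the threshold (adjusted p = 0.0487). The call for Tk1 was lost when any of 14 of the 17 arrays was left out, with an adjusted p of 0.199 without the outlying FVB array and 0.351 without all 3 doubted arrays.

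The cyclins and kinase of S phase and mitosis rose throughout, 5 of 5 tested genes. Cdk1 is the kinase that drives entry into mitosis. It read 97.3 and 177 on the FVB female arrays and 323, 361 and 136 on the FVB male arrays, and ranged from 399 over 530 to 680 in TNFTG hearts of 3 weeks. No FVB array reached the TNFTG range, although the arrays labelled FVB male 1 and 2 came near it. The log2 difference was 1.53 ± 0.24 (adjusted p = 8.20e-05). At 13 weeks Cdk1 read 437, 612 and 460, above FVB, and at 40 weeks 532.5, 388 and 352, where the lowest array fell just under the highest FVB array.

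Cks1b and Cks2 encode small subunits that bind cyclin-dependent kinases. Cks1b read 116 and 199 in FVB females and 239, 294 and 219 in FVB males, against 473 to 736 with a median of 675 in TNFTG hearts of 3 weeks. Cks2 read 82.4 and 73.8 in FVB females and 163, 175 and 99.2 in FVB males, against 258 to 510 with a median of 314. Neither gene overlapped between the groups, and the log2 differences were 1.72 ± 0.20 (adjusted p = 4.18e-06) and 1.63 ± 0.18 (adjusted p = 2.08e-06). The cyclins moved less: Ccnb2, a B-type cyclin of mitosis, by 0.84 and Ccna2, the A-type cyclin of S phase and G2, by 0.54 (adjusted p = 0.0425). For both, FVB and TNFTG arrays overlapped. The Ccnb2 call was lost without FVB female replicate 3 (adjusted p = 0.0591), and that for Ccna2 with 11 of the 17 arrays left out in turn, down to a difference of 0.19 (adjusted p = 0.335) without FVB female replicate 3.

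Of the spindle, checkpoint and exit genes, 3 of 7 tested genes rose. Mki67 encodes the Ki-67 protein that coats mitotic chromosomes and is the usual histological marker of dividing cells. Its signals were 98.3 and 25.2 on the FVB female arrays and 183, 251 and 59.9 on the FVB male arrays, 1 of them below the floor. TNFTG hearts of 3 weeks ranged from 349 over 397 to 680, those of 13 weeks read 264, 469 and 462.5, and those of 40 weeks 417, 365 and 271. Each TNFTG array was above each FVB array, but FVB arrays themselves spread widely, with the arrays labelled male 1 and 2 highest. The log2 difference of 2.23 ± 0.33 (adjusted p = 4.98e-05), the largest of the 36, was 3.12 without the 3 doubted FVB arrays. A second Mki67 probe set was called lower (-1.31 ± 0.34, adjusted p = 0.00496), with median signals of 205 in FVB and 105 in TNFTG hearts, and with the 2 averaged the gene was no longer called (0.46, adjusted p = 0.141).

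Birc5, or survivin, a subunit of the chromosomal passenger complex, read 63.4 and 59 in FVB females and 133, 109 and 56.4 in FVB males. It ranged from 159.5 over 209 to 326 in TNFTG hearts of 3 weeks, with no overlap, and rose by 1.48 ± 0.22 on the log2 scale (adjusted p = 5.29e-05). Mad2l1, the spindle checkpoint protein Mad2, rose by 0.95 and also did not overlap. Of the partners of Birc5 in the same complex, the kinase Aurkb showed a large but scattered difference of 1.26 ± 0.53 (adjusted p = 0.0613), and the scaffold Incenp one of -0.06 ± 0.11 (adjusted p = 0.682). For Aurkb the outlying FVB array read 207 against 30.7 to 62.5 on the other 4, and without it the difference was 1.81 (adjusted p = 0.0175; 1.93 and 0.0422 without all 3 doubted arrays). A second Incenp probe set was called lower (-0.86 ± 0.27, adjusted p = 0.0162). Cdc20, the activator of the anaphase-promoting complex, showed 0.37 ± 0.18 (adjusted p = 0.105) and 0.61 without the outlying FVB array (adjusted p = 0.0103; 0.71 and 0.0164 without all 3). Plk1, the polo-like kinase of mitosis, showed -0.21 ± 0.25 (adjusted p = 0.508), and 0.20 without that array. The dim spindle genes Kif11, a kinesin motor, and Aurka, a centrosome kinase, showed 0.77 and 0.88 when no filter was applied (adjusted p = 0.00188 and 0.0100), and Bub1, a checkpoint kinase, -0.21.

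**Figure D2:**
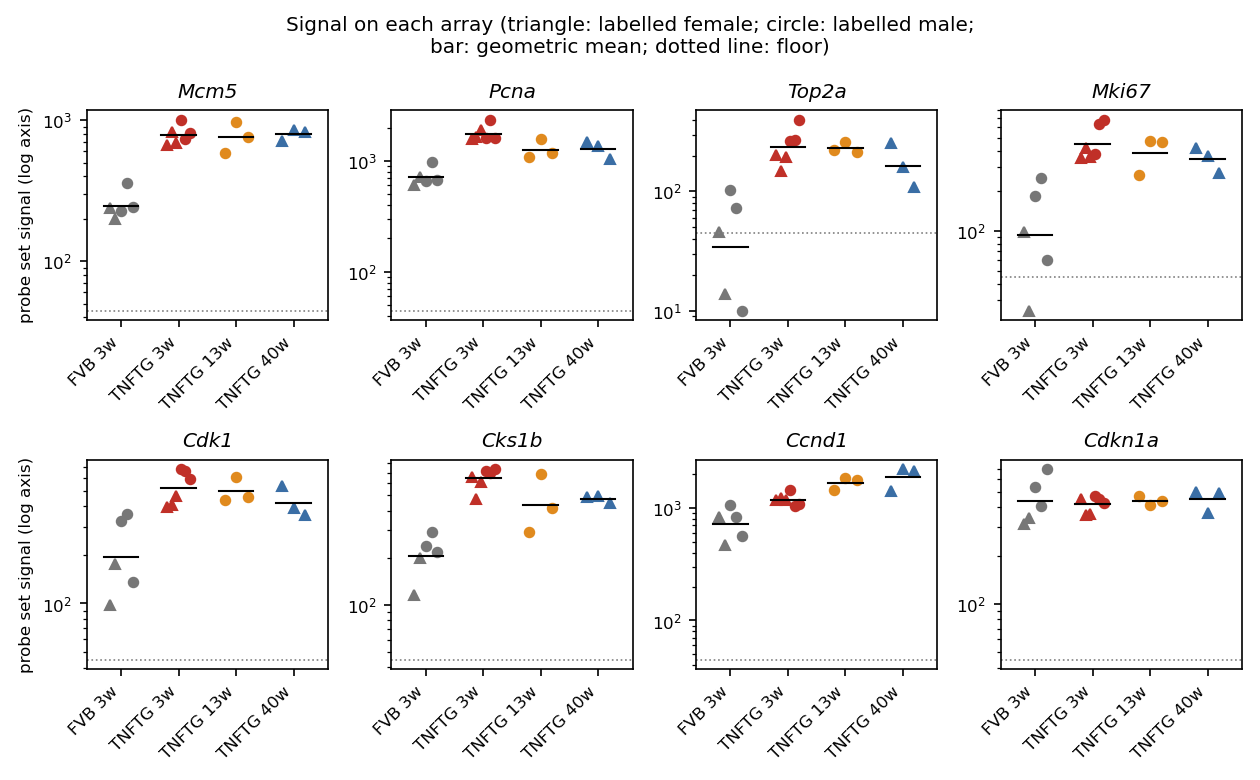
Signal of 8 genes on each array, on a log axis, by genotype and age; triangles are arrays labelled female, circles arrays labelled male, bars geometric means and the dotted line the floor of 44.7. For Mcm5, Pcna, Top2a, Mki67 and Cks1b all TNFTG arrays lie above the FVB arrays, while for Cdkn1a the groups overlap throughout.

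Stmn1, or stathmin, a protein that binds tubulin, read 386 and 553 on the FVB female arrays and 983, 1212 and 857 on the FVB male arrays. TNFTG hearts of 3 weeks ranged from 1354 over 1668 to 2031, above all FVB arrays, and the log2 difference was 1.27 ± 0.15 (adjusted p = 5.21e-06). The lowest array of 13 weeks, 958, and the lowest of 40 weeks, 1176, lay within the FVB range. Ezh2, the histone methyltransferase of the Polycomb complex, rose by 0.76 (adjusted p = 0.00478), with 1 TNFTG array, at 254, inside the FVB range of 153 to 307.

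The G1 and S group differed in its counts: 2 of 7 tested genes were called, both D-type cyclins, and the median difference was 0.14, against 24 of 29 and 1.06 for the genes of the other roles. Its count of higher calls was near the share over all tested probe sets, 24.7%. Ccnd1, the cyclin D1 that starts passage through G1, read 822 and 468 on the FVB female arrays and 1055, 830 and 566 on the FVB male arrays, against 1036 to 1448 with a median of 1167 in TNFTG hearts of 3 weeks. The ranges touched, with 1 FVB male array above the lowest TNFTG array, and the difference was 0.75 ± 0.19 (adjusted p = 0.00543). Ccnd2 rose by 0.76 ± 0.23 (adjusted p = 0.0133), a call that was lost without FVB female replicate 3 (0.44, adjusted p = 0.0966). Ccnd3 showed 0.14 with a 95% interval of -0.15 to 0.43.

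Cdkn1a, the p21 inhibitor of cyclin-dependent kinases, read 315 and 342.5 in FVB females and 537, 410 and 694 in FVB males, and 357 over 437 to 475 in TNFTG hearts of 3 weeks. The TNFTG arrays lay inside the FVB range, and the log2 difference was -0.0027 with a 95% interval of -0.31 to 0.31 (adjusted p = 0.989). Cdk2, the kinase partner of cyclins E and A, showed 0.42 (adjusted p = 0.0725), and Ccne1, cyclin E1, -0.25 (adjusted p = 0.161). Cdk4, the kinase partner of the D cyclins, showed -0.12 (adjusted p = 0.568) by its brighter probe set and 1.02 (adjusted p = 0.0260) by the other, so its 2 probe sets give different answers.

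Genes of the same pathways outside the list are given beside the shares over all tested probe sets, 24.7% called higher and 21.9% lower. Of 20 other replication genes tested, 8 rose and 1 fell, with a median of 0.45. Those of smallest p were Dck, a deoxynucleoside kinase (1.48), Cdt1, which loads the helicase with Cdc6 (0.72), and Dnmt1, the maintenance DNA methyltransferase (1.11), while Gmnn, geminin, the inhibitor of Cdt1, fell by 0.51 (adjusted p = 0.00909). Of 18 other mitotic genes 9 rose and 1 fell, led by Racgap1 (1.32), Kif22 (1.55), Smc2 (1.71) and Kif20a (1.55), which act in cytokinesis, chromosome movement and condensation. Of 8 other G1 and checkpoint genes 2 rose, the transcription factor Mycn (1.60) and Wee1 (0.62), a kinase that inhibits Cdk1. Of the same 8, 1 fell, Cdk7 (-0.62), and the count of higher calls was near the share over all probe sets. Of 15 inhibitors of division 7 rose and 3 fell, the count of lower calls being near the share over all probe sets. Btg1 (1.72), the pocket protein Rbl1 (1.27) and Gadd45b (1.09) were among those that rose, and Cdkn1c, the p57 inhibitor (-1.51, adjusted p = 4.98e-06), among those that fell.

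By labelled sex, 16 of 36 genes rose and 1 fell in females, where 19.4% of tested probe sets were called higher and 15.3% lower. In males 22 rose and 0 fell, where 16.9% were called higher and 12.8% lower; beside that 0, no tested gene with a negative difference in males had an unadjusted p under 0.05. By role, females and males had 3 and 6 of 7 licensing genes called higher, 4 and 3 of 5 fork genes, 3 and 4 of 5 genes of S phase to mitosis, and 3 and 5 of 7 spindle genes. With each array left out in turn, 11 of the 17 calls in females and 16 of the 22 in males held. Without the 3 doubted FVB arrays, which leaves 1 FVB array per sex that is assumed to vary like the other groups, 21 genes were called higher in females and 23 in males. Cdc6 (adjusted p = 0.0531) and Cdc45 (0.0767) then lost the call in females, and Rrm1 (0.0931) and Incenp (0.154) in males. Mcm2, Mcm3, Mcm4, Rrm2, Ccnd2, Ccna2 and Ccnb2 gained it in females, and Lig1, Ccnd1 and Ccnd2 in males. The gene that fell in females was Incenp, which read 227 and 265 on the FVB female arrays and 171, 154 and 168 on the TNFTG female arrays (log2 difference -0.58 ± 0.16, adjusted p = 0.0143). On the male arrays Incenp went the other way, from 226, 210 and 223 in FVB to 281, 295 and 331 in TNFTG hearts (0.46 ± 0.15, adjusted p = 0.0276). That male call was lost in 6 of 12 other settings, with an adjusted p of up to 0.405, and when any of 5 of the 17 arrays was left out (each FVB male array, and TNFTG males 2 and 3 of 3 weeks; adjusted p up to 0.102). The female call was lost in 4 of 12 other settings and without FVB female replicate 3 (adjusted p = 0.0672). The test of that difference between the sexes missed the threshold (male minus female 1.04 ± 0.22, 95% interval 0.57 to 1.51, adjusted p = 0.0947). No gene of the 36, and 0% of all tested probe sets, passed the threshold for a sex difference by limma, while 7 of 36 had an unadjusted p under 0.05, as did 1228 of 7453 probe sets. That count was near the share over all tested probe sets, and it rests on the FVB sex labels in doubt. The 7 were Mcm4, Rrm2, Ccnb2, Cdc20 and Incenp, with the larger effect in males, and Rrm1 and Stmn1, with the larger effect in females. Calls of a sex difference appeared when FVB female replicate 3 was left out. The FVB females are then the outlying array alone, so these calls are not read as a result about the genes.

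The later ages were compared with the TNFTG hearts of 3 weeks of the same sex. From 3 to 13 weeks in males, 0 of 36 genes were called, where 0.523% of tested probe sets were. An unadjusted p under 0.05 by limma was found for 5 of the 36, and for 642 of all 7453 tested probe sets. These 5 all pointed down: Ccnb2 by -0.73 (95% interval -1.39 to -0.06), Cks1b by -0.71 (-1.28 to -0.15), Rrm2 by -0.71 (-1.27 to -0.15), Stmn1 by -0.60 (-1.02 to -0.17) and Pcna by -0.53 (-1.002 to -0.06). The median of the 36 differences was -0.26, against -0.01 over all tested probe sets, and 6 were positive. From 3 to 40 weeks in females, 0 of 36 were called, where 0.671% of tested probe sets were. An unadjusted p under 0.05 by limma was found for 3 of the 36, near the share over all tested probe sets (678 of 7453). The 3 genes were Incenp at 0.55 (95% interval 0.24 to 0.87), Ccnd1 at 0.66 (0.11 to 1.21) and Mad2l1 at -0.45 (-0.90 to -0.0025). The median was -0.04, against 0.01 over all tested probe sets, and 14 of 36 were positive.

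The width of these intervals leaves room for sizeable changes that 3 arrays against 3 do not resolve: for Mki67 the interval ran from -1.42 to 0.42 at 13 weeks and from -1.03 to 0.81 at 40 weeks, and for Top2a from -1.06 to 0.26 and from -0.80 to 0.52. The difference between the age changes was called for 0 genes and for 0% of all tested probe sets, with 1 gene, Incenp, at an unadjusted p under 0.05 (female minus male change 0.86 ± 0.21, adjusted p = 0.9997), and age and sex cannot be told apart in it.

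**Figure D3:**
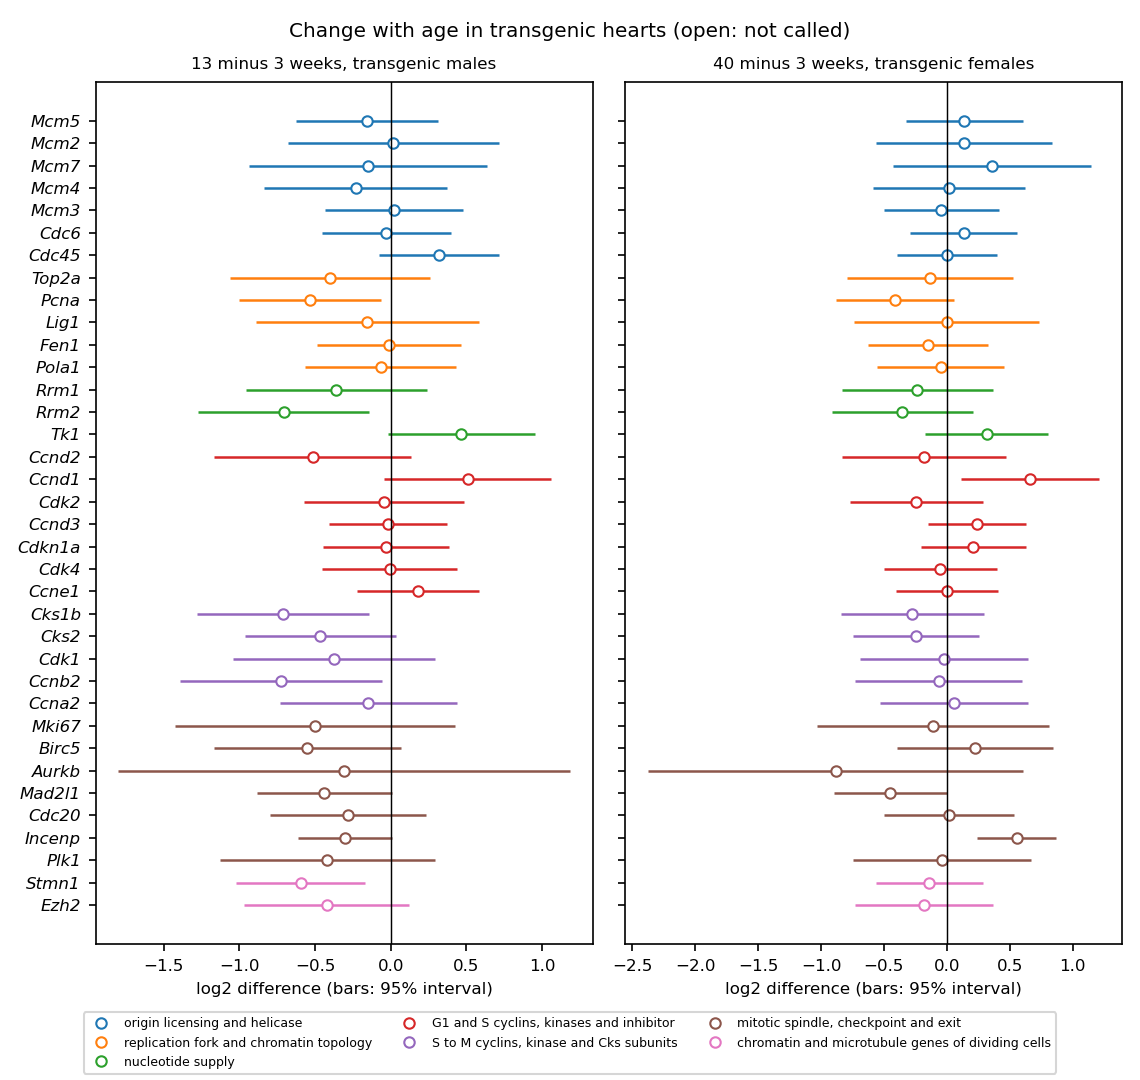
Log2 difference from 3 to 13 weeks in TNFTG males (left) and from 3 to 40 weeks in TNFTG females (right) for the 36 tested genes, coloured by role, with 95% intervals from limma. No gene was called; most points of the left panel lie below 0, with a median of -0.26, and those of the right panel scatter around -0.04.

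Set against the FVB hearts of 3 weeks, the only FVB age analysed here, the signals of 17 of 36 genes at 13 weeks and of 14 at 40 weeks lay above all 5 FVB arrays on all 3 TNFTG arrays. Among all tested probe sets the shares were 16.6% and 15.8%. Some of these genes were shared by all 3 ages, but no share over all tested probe sets is at hand for that. Because the FVB arrays are the same in each of these counts, they are not independent of each other. Genes above FVB at a later age but not at 3 weeks were Tk1 and Ccnd1 at both later ages, Cdc45 at 13 weeks and Mcm3 at 40 weeks. The rule was stricter at 3 weeks, with 6 TNFTG arrays of both sexes against 3 of the same sex at each later age. For Ccnd1 and Mcm3 the TNFTG females of 3 weeks all lay above every FVB array, and only TNFTG male 2 did not. Among females, neither gene was thus newly above FVB at 40 weeks. Tk1 in either sex and Cdc45 in males overlapped with FVB at 3 weeks. Ccnd1 read 1445, 1821 and 1753 at 13 weeks and 1405, 2199 and 2107 at 40 weeks, above the 3-week TNFTG median of 1167 on every array. The lowest array of each later age lay inside the 3-week TNFTG range, which reached 1448. By limma neither age change of Ccnd1 was called (adjusted p = 0.646 at 13 weeks and 0.413 at 40 weeks). A second, dimmer Ccnd1 probe set showed no such rise, with TNFTG medians of 532 at 3 weeks, 550.5 at 13 weeks and 507 at 40 weeks. Mad2l1, Fen1, Rrm1 and Cdk1, above FVB at 3 and 13 weeks, overlapped with FVB at 40 weeks.

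Over the arrays, the median of the 36 log2 differences from the FVB mean ran from -0.27 to 0.27 on the FVB arrays, from 0.72 to 1.201 on TNFTG arrays of 3 weeks, from 0.61 to 0.85 at 13 weeks and from 0.46 to 0.80 at 40 weeks. Every TNFTG array was above every FVB array on this measure. Within TNFTG hearts of 3 weeks, males lay at 0.84 to 1.201 and females at 0.72 to 0.87 over the 36 genes, so the sexes overlapped. For the 29 genes outside the G1 group, males lay at 1.17 to 1.33 and females at 0.79 to 0.97. By limma no gene was called for a sex difference. The G1 and S group alone ran from -0.20 to 0.29 on FVB and from -0.08 to 0.36 on TNFTG arrays of 3 weeks, and the groups overlapped.

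**Figure D4:**
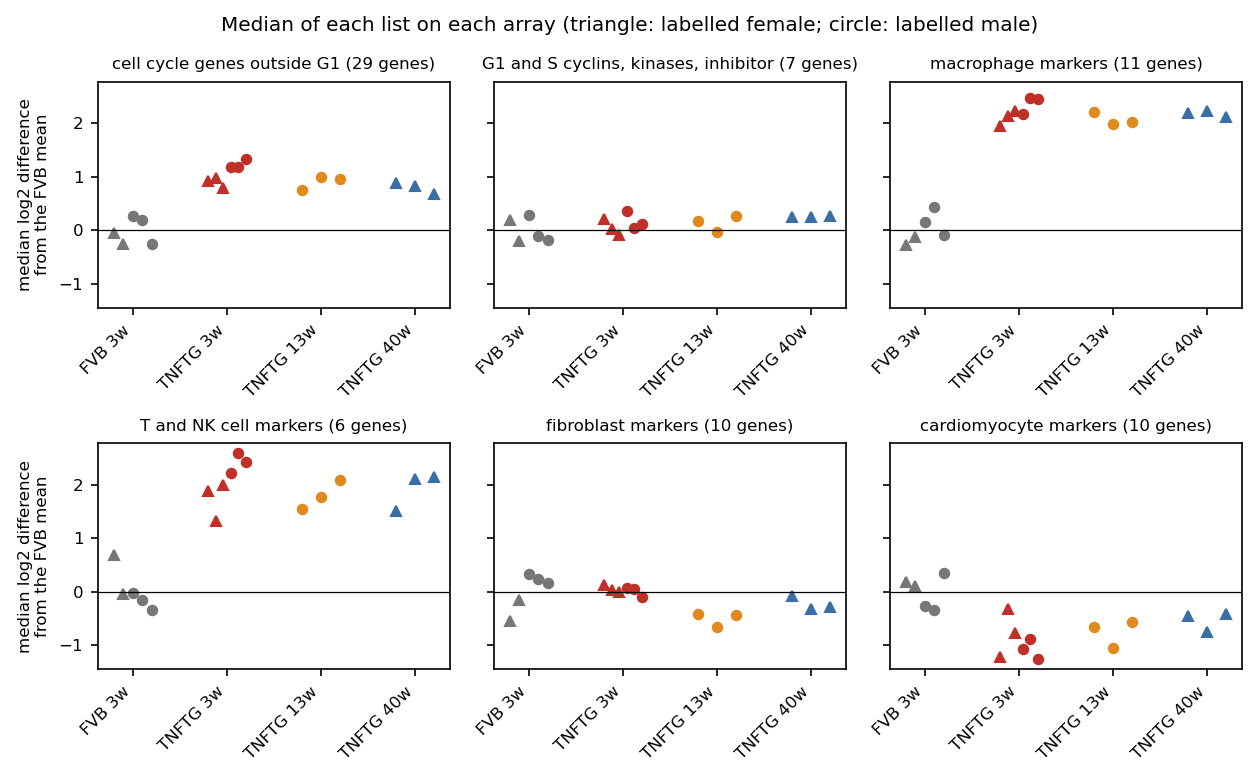
Median log2 difference from the FVB mean on each array for 2 groups of the cell cycle genes and 4 lists of cell type markers; triangles are arrays labelled female and circles arrays labelled male. The cell cycle genes outside G1 and the macrophage and T and NK cell markers are higher on every TNFTG array, and the cardiomyocyte markers lie lower than on most FVB arrays.

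Markers of other cell types were read in the same hearts. Over all tested probe sets, 24.7% were called higher at 3 weeks and 21.9% lower. At 3 weeks 10 of 11 tested macrophage markers rose with a median of 2.30, led by Lgals3 (5.52), Cd53 (4.83) and Lyz2 (3.67), and their summed signal was 4823 to 8267 on FVB and 34605 to 42873 on TNFTG arrays. All 6 tested T and NK cell markers rose (median 1.95), with summed signals of 559 to 860 and 1719 to 3330. Of 6 B cell markers 2 rose and of 3 thymocyte markers 1 rose and 1 fell, with the thymocyte gene Rag2 at the floor on every TNFTG array. Of the resident cells, 4 of 10 fibroblast markers rose and 3 fell (summed signal 29222 to 46699 on FVB and 32221 to 41349 on TNFTG arrays), 3 of 8 endothelial markers fell, and of 6 smooth muscle and pericyte markers 2 rose and 3 fell. The 10 cardiomyocyte markers all fell, with a median of -0.96 and a summed signal of 224803 to 356128 against 119287 to 226230, and 3 of 4 erythroid markers fell. No macrophage or T and NK cell marker was at the floor on every array of any group. Which cells carried the cell cycle transcripts was not tested, and the part of these marker shifts in their rise was not tested.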

How the data were processed

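Total RNA of mouse hearts was measured on Affymetrix U74Av2 arrays, 18 deposited columns in 6 groups taken from the sample titles. The authors deposited a probe set intensity on a linear scale, already scaled: trimmed means per array (2% off each end) lay at 499.2 to 499.9, so values were used as deposited. The software behind them is not given in the sources used here. Depth does not apply to arrays; their number, 17 distinct, limits the precision.

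Signals below the 25th percentile of pooled values (44.7) were set to it and log2 was taken. After leaving out 66 control probe sets, the brightest 60%, 7453, were tested. limma 3.58.1 in R 4.3.3 fitted a mean per group (11 residual degrees of freedom), two-sided, with Benjamini-Hochberg adjustment over 7453 probe sets and a threshold of 0.05, checked on simulated data. Female and male differences were averaged with equal weight for the effect at 3 weeks. Symbols came from platform annotation: 10833 probe sets had 1 gene symbol, 396 several and 1193 none. All 42 symbols on the array were found in RefSeq. Full statistics are given for up to 12 called genes of largest difference in each comparison, for up to 4 genes of each pathway list and up to 3 of each marker list by smallest p, and a few others chosen after their values were seen. The genes, lists and tests were chosen with earlier results of these data known.

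The labels do not say whether replicate numbers pair the arrays, and the main fit did not pair them. Deviations of same-numbered arrays correlated at -0.34 to 0.47 (median 0.054), with 16 of 40 pairs over 0.1. Those of arrays with different numbers correlated at -0.38 to 0.33 (median 0.008), with 22 of 80 pairs over 0.1. A shared replicate structure is therefore not excluded. Alternatives covered normalization, floor, filter, variance model, groups fitted, probe set choice and each array left out.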

Additional observations from a re-analysis of the deposited data

Results flagged for a closer look

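In 11 of 83 combinations of gene and group, 1 array lay far from the others of its group, judged by its gap to the nearest array as a share of the group's range; chance flags about 1 in 20. Of these, 8 were in FVB hearts, and 5 were the outlying FVB female array as the highest: Mcm3 (the other 4 at 257.5 to 309, a share of 0.769), Mcm6 (166.5 against 4.4 to 28.2, with the others at the floor, 1), Pola1 (273 against 127 to 153, 0.755), Bub1 (348 against 8.5 to 49.6, 0.949) and Aurkb (207 against 30.7 to 62.5, 0.781). The array labelled FVB male 1 was highest for Cdc6 (111 against 71.2 to 78.8, 0.773) and Aurka (84.5 against 24.4 to 53.1, 0.729), and FVB male 3 lowest for Mcm2 (39 against 122 to 169, 0.757). In TNFTG hearts of 3 weeks, male 3 was highest for Mcm7 (589 against 237 to 318, 0.676) and Plk1 (486.5 against 237 to 303, 0.66), and female 2 lowest for Ezh2 (254 against 396 to 486, 0.686).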

How the results depend on the processing

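Of the 26 genes called higher at 3 weeks, 20 kept the call in every other setting tried that tested them, and 21 with each array left out in turn; none reversed. Mcm7 lost it with array weights, Cdc6 with a floor at the 40th percentile, Mki67 with the mean over its probe sets, and Cdc45, Tk1 and Ccna2 in several settings. Testing only the brightest 40% of probe sets left 19 of the genes, of which 13 were called higher (7 in females, 10 in males). Averaging the probe sets of a gene gave 1 lower call at 3 weeks (Incenp). With array weights, 9 genes were called higher in females, and at 40 weeks 2 higher (Ccnd1 and Incenp) and 1 lower (Mad2l1). The lower call in females fell to 0 with quantile normalization, a common median, the brightest 40%, array weights or only the groups compared. No filter gave 1 sex difference and 1 gene higher at 40 weeks, and keeping both identical columns 1 sex difference, Incenp each time. The causes were not tested. Leaving out each array gave 23 to 28 genes higher at 3 weeks, 14 to 19 in females and 17 to 26 in males. Without FVB female replicate 3, lower calls at 3 weeks included Cdk4 and Plk1, and calls of a sex difference appeared. The lone FVB female left is then the outlying array and is assumed to vary like the other groups, so these calls are not read as a result. With the replicate number as a block, 24 genes were called higher at 3 weeks, 16 in females and 22 in males, and 0 at either later age. A common median moved the median of all tested probe sets to 0.18 in females, -0.18 in males and -0.39 for the sex difference. The 6 untested genes were left out by their low mean signal. Mcm6 was at the floor on nearly all arrays, whereas Kif11 was above it on every array (53.6 to 143).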
